A study of Mus musculus with 4 samples.

Results

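This report describes 10 glycolysis enzyme genes, *Hk2*, *Pfkp*, *Aldoa*, *Tpi1*, *Gapdh*, *Pgk1*, *Pgam1*, *Eno1*, *Pkm* and *Ldha*, among the 27998 genes measured in single satellite cells of 4 mouse strains. The genes were chosen by name, as 1 enzyme for each of 9 reactions of the pathway from glucose onwards plus lactate dehydrogenase. The choice used no measured value, although earlier results of these data were known when it was made. Satellite cells, the Pax7-positive stem cells of skeletal muscle, were sorted from the lower hindlimbs as cells positive for α7-integrin and VCAM1 and negative for Cd11b, Sca1, Cd45 and Cd31. A 10X Genomics 3′ V3.1 library was made for each strain from the pooled muscles of 2 mice, so every strain is 1 sample with no replicate. The healthy strains were C57/Bl10ScsSn (B10, 15 weeks of age) and DBA/2 (DBA, 13 weeks). The models of Duchenne muscular dystrophy (DMD) were C57BL/10ScSn-Dmdmdx (*mdx*, 11 weeks), set against B10, and D2.B10-Dmdmdx (D2-*mdx*, 14 weeks), set against DBA. Both carry the *mdx* allele of dystrophin in every cell of the body from birth, and age differs with strain. No treatment was given to any group by the labels.

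Glycolysis splits glucose into pyruvate in the cytosol and yields ATP without oxygen. Quiescent satellite cells are known for a low rate of glycolysis, which increases when they are activated and divide, and mature fibres, above all fast fibres, carry the pathway at high levels with isoforms of their own. Hexokinase 2 (*Hk2*) traps glucose in the cell as glucose 6-phosphate, phosphofructokinase (*Pfkp*, the platelet isoform) makes the committed step, and aldolase (*Aldoa*) and triosephosphate isomerase (*Tpi1*) produce the triose used below. The second stage consists of *Gapdh*, *Pgk1*, *Pgam1*, *Eno1* and *Pkm*, which lead to pyruvate, and *Ldha* turns pyruvate into lactate. *Eno3*, *Pgam2* and *Ckm* are the enolase, phosphoglycerate mutase and creatine kinase of muscle fibres. Fibre RNA was followed by *Ckm* and by a list of 13 fibre genes that includes it. *Eno3* and *Pgam2* are not in that list and were set beside it.

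Several of these enzymes are known targets of the hypoxia-inducible factors, whose binding core is ACGTG or GCGTG. Letters of this core, read on both strands (also CACGT and CACGC, which overlap the E-box CACGTG), were found in the promoter window, from 250 bases before to 50 after the start site, of 9 of the 10 genes, against 46.7% of 27025 genes with a window in the RefSeq table for GRCm38.p6. By window, 13 of 16 member windows held the core, against 43.8% of 32851 windows. Some windows of *Eno1* and of *Aldoa* overlap and share their matches, so a match can count in more than 1 window. The members also had more windows per gene (16 for 10 genes) than all genes (32851 for 27025), which gives more room for a match. A match is a description of the letters and not a binding site. *Hk2* (chr6:82725025-82774454, minus strand), *Tpi1* (chr6:124810586-124814296, minus strand) and *Gapdh* (chr6:125161715-125166467, minus strand) were the members past 1.5-fold in the same direction in both DMD models, and their windows are shown for that reason, as chr6:82774405-82774704, chr6:124814109-124814408 and chr6:125165724-125166023 of the minus strand, 5′ to 3′, with the core in capitals. *Hk2* held 2 matches, *Gapdh* 3 and *Tpi1* 0. The gene ranges are those of Ensembl entries, while the windows follow RefSeq start sites. For *Gapdh* and *Tpi1* the start sites of these sources differ, and the *Gapdh* window lies inside its gene range. The matches refer to the RefSeq start sites only.
*Hk2*: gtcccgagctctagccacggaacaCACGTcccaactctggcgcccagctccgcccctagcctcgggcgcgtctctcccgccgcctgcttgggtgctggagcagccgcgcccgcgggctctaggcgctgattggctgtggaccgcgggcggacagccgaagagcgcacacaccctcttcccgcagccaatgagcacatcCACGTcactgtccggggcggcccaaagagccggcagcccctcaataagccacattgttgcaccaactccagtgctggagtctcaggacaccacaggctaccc
*Tpi1*: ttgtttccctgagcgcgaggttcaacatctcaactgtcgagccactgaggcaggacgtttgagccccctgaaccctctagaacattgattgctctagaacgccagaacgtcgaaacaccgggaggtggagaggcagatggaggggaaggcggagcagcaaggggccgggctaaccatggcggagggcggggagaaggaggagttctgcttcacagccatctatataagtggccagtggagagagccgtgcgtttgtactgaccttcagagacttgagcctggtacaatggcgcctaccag
*Gapdh*: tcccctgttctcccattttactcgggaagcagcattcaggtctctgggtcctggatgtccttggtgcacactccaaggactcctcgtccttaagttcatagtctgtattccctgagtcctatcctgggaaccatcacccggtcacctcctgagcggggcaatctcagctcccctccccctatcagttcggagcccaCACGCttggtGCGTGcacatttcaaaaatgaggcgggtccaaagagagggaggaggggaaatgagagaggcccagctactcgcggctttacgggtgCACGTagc

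The libraries held 43542853 to 75482888 unique molecular identifiers (UMIs, 1 for each captured transcript) over 3539 to 9931 barcodes. The filters left 4581 cells of B10 and 6313 of *mdx*, and 3279 of DBA and 5756 of D2-*mdx*, with medians of 6675 to 10434 UMIs. Dystrophin, the mutated gene, stood at 325 and 288 CPM (counts of UMIs scaled to 1000000 in a class) in the myogenic cells of B10 and DBA and at 122 and 96.9 CPM in *mdx* and D2-*mdx*, in the direction of the labels. B10 alone held 4278 barcodes under 500 genes, against 11 to 14 in the other libraries, and these were left out. Of 19896 barcode sequences among the kept cells, 33 occurred in more than 1 library.

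Cells were placed in classes by UMIs of marker genes. Pax7-positive cells numbered 4376 in B10 against 4060 in *mdx*, and 2638 in DBA against 3352 in D2-*mdx*. Dividing cells (at least 10 UMIs of 17 cell-cycle genes) numbered 4, 101, 19 and 209, and differentiating cells with at least 2 UMIs of *Myog* numbered 10, 214, 24 and 213. Non-myogenic cells, 156, 1481, 572 and 1623, carried more UMIs of pericyte, smooth muscle, endothelial, white blood cell, glial and fibroblast markers than of myogenic markers, and the largest type among them was pericyte-like (90, 621, 462 and 998 cells). The white blood-like cells of B10 and DBA, 4 and 28 cells, also had *Pax7* in most cells (78.6% in DBA). As a type they are shown for *Hk2* only, but they also count in the non-myogenic class for every member. The dividing and *Myog*-positive cells were deeper (class medians of 12629 to 21696 UMIs) than the Pax7-positive cells (6156 to 10256 UMIs). For each class and library the UMIs of a gene were summed and divided by all UMIs of the class, in CPM. A CPM is a share, so more transcripts of a gene and fewer of the others cannot be told apart. Intervals are 95% and cover counting error only, and no test between strains was run, with 1 library each. A gene is said to pass when the ratio of 2 CPM values is 1.5-fold or more in a pair in which 1 value reached 10 CPM.

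In Pax7-positive cells, glycolysis transcripts, above all those of *Gapdh*, took a larger share of the RNA in both DMD models. The size ranged from a many-fold difference in *Hk2* to the opposite direction in *Aldoa* and *Pgk1*. *Pfkp* was lower in *mdx* and higher in D2-*mdx*. The 10 genes together stood at 2235 CPM in B10 against 3115 in *mdx*, and at 2265 in DBA against 3224 in D2-*mdx*. This is 1.39-fold higher in *mdx* than in B10 and 1.42-fold higher in D2-*mdx* than in DBA. *Gapdh* made up 761 of the 879.8 CPM by which *mdx* exceeded B10 and 749.7 of the 959.7 CPM by which D2-*mdx* exceeded DBA. The other 9 genes summed to 1298 against 1180 CPM (1.10-fold) and 1423 against 1213 CPM (1.17-fold). In *mdx* over B10, 4 members were past 1.5-fold higher (*Hk2*, *Tpi1*, *Gapdh* and *Eno1*), against 9.26% of 8435 genes, and 1 was lower (*Pfkp*), against 12.2%. In D2-*mdx* over DBA, 4 were higher (*Hk2*, *Tpi1*, *Gapdh* and *Ldha*), against 9.28% of 8397 genes, and 1 was lower (*Pgk1*), against 13.4%. The median log2 ratio of the members was 0.41 in each pair, beside -0.036 and -0.063 over all genes. The count of higher members in *mdx* over B10 depended on how cells were chosen (1 or 2 of 10 under some alternatives given at the end), while *Hk2* passed in each. With DESeq2 size factors the split of higher to lower genes in D2-*mdx* over DBA went from 779 and 1128 to 995 and 862.

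Markers of blood cells were also higher in the Pax7-positive cells of each DMD library than in those of its healthy library. The 7 white blood cell markers summed to 1.32 CPM in B10 against 25.9 in *mdx*, and to 5.00 in DBA against 73.1 in D2-*mdx*, with 1 marker at 0 in B10 and none at 0 in the others. *Lyz2*, a macrophage and neutrophil lysozyme, was the only one of the 7 to reach 10 CPM and was past 1.5-fold higher in both pairs. The 5 haemoglobin and erythrocyte genes summed to 24.3, 280, 307 and 928 CPM. The part of blood cell RNA in the member differences was not tested.

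**Figure D1:**
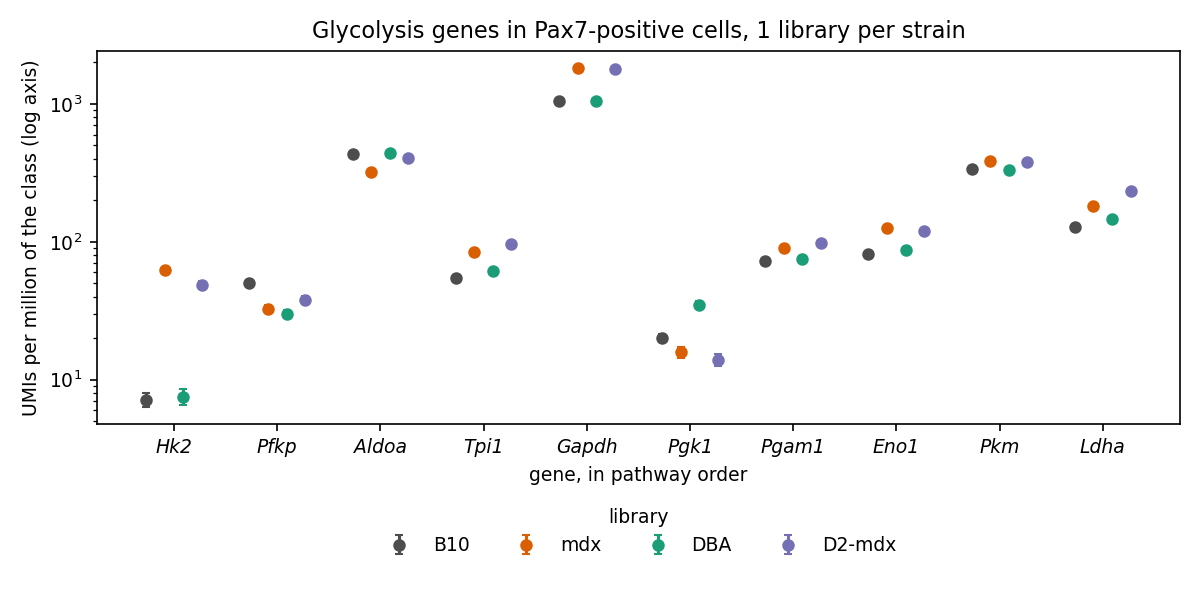
Level of each gene in Pax7-positive cells, in CPM of the class on a log axis, with the genes in pathway order along the horizontal axis. Points are single libraries (B10, *mdx*, DBA, D2-*mdx*) and bars are 95% counting intervals. *Hk2* stands at 7.15 and 7.50 CPM in B10 and DBA and at 62.3 and 48.8 CPM in *mdx* and D2-*mdx*, and *Gapdh* at 1055 and 1051 CPM in the former and 1817 and 1801 CPM in the latter.

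*Hk2* showed the largest ratio among the members. It stood at 7.15 CPM (282 UMIs) in B10 against 62.3 (2037 UMIs) in *mdx*, and at 7.50 (219 UMIs) in DBA against 48.8 (1206 UMIs) in D2-*mdx*. The healthy libraries lay close together, and both DMD libraries lay far above them. The log2 ratio was 3.12 (2.94 to 3.31), or 8.72-fold, in *mdx* over B10 and 2.70 (2.49 to 2.92), or 6.51-fold, in D2-*mdx* over DBA. After thinning each cell to 3000 UMIs, at least 1 *Hk2* UMI was found in 1.59% of B10 cells against 12.2% of *mdx* cells, and in 1.82% of DBA cells against 10.5% of D2-*mdx* cells. Without thinning the shares were 3.86%, 20.7%, 4.06% and 18.5%, and no endothelial-like cell of any library held an *Hk2* UMI. *Hk1*, the widely expressed hexokinase, stood at 55.2, 39.5, 53.0 and 52.0 CPM in the same order. Of the UMIs of both hexokinases, *Hk2* took 11.5% in B10 (10.2 to 12.8) against 61.2% in *mdx* (59.5 to 62.8), and 12.4% in DBA (10.9 to 14.0) against 48.4% in D2-*mdx* (46.4 to 50.4). *Hk2* was thus the minor hexokinase in both healthy libraries and close to or above *Hk1* in the DMD libraries, and *Hk1* was lower in *mdx* than in B10 at a log2 ratio of -0.48.

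Among the enzymes of the triose stage, *Gapdh*, which oxidises glyceraldehyde 3-phosphate, stood at 1055 CPM in B10 against 1817 in *mdx*, and at 1051 in DBA against 1801 in D2-*mdx*, a log2 ratio of 0.78 in each pair (0.77 to 0.80 and 0.76 to 0.80). *Tpi1* stood at 54.8, 84.9, 61.2 and 95.6 CPM, with log2 ratios of 0.63 (0.55 to 0.71) and 0.64 (0.55 to 0.73). For both genes each DMD library lay above each healthy library. *Eno1*, the enolase of most tissues, stood at 81.4, 125, 87.7 and 119 CPM, with log2 ratios of 0.62 (0.55 to 0.68) and 0.44 (0.36 to 0.52), and *Pgam1* at 72.5, 90.4, 75.3 and 98.1 CPM, with log2 ratios of 0.32 and 0.38. *Ldha* stood at 127 CPM in B10 against 181 in *mdx*, and at 147 in DBA against 232 in D2-*mdx*, with log2 ratios of 0.50 (0.45 to 0.56) and 0.66 (0.61 to 0.72). *Eno1* passed in the *mdx* pair and *Ldha* in the D2-*mdx* pair, and both lay above 0 in the other pair. The difference between the pairs was not tested.

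The remaining members had no common direction in the DMD libraries. *Pkm*, the pyruvate kinase, stood at 336, 387, 332 and 376 CPM, with log2 ratios of 0.21 and 0.18, and 3′ counting does not separate its M1 and M2 forms. *Aldoa* stood at 431 CPM in B10 against 319 in *mdx*, and at 438 in DBA against 402 in D2-*mdx*, with log2 ratios of -0.43 (-0.47 to -0.40) and -0.12 (-0.16 to -0.08). *Pgk1*, the first ATP-yielding step, stood at 20.1, 15.8, 34.9 and 13.9 CPM, with log2 ratios of -0.35 (-0.51 to -0.19) and -1.33 (-1.51 to -1.15). Its healthy libraries differed from each other more than the DMD libraries did, at a log2 ratio of 0.80 for DBA over B10 and -0.18 for D2-*mdx* over *mdx*. *Pfkp* moved in opposite directions, from 49.8 CPM in B10 to 32.6 in *mdx* (log2 ratio -0.61, -0.72 to -0.50) and from 30.1 in DBA to 37.6 in D2-*mdx* (log2 ratio 0.33, 0.19 to 0.46). Here B10 stood apart from the other 3 libraries, with DBA over B10 at a log2 ratio of -0.73. *Gapdh*, *Tpi1*, *Pgk1* and *Ldha* have processed pseudogenes and *Eno1* a near-identical copy, *Eno1b* (1.09 to 2.39 CPM in these cells), so reads may be shared between copies and those values are uncertain to that extent.

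**Figure D2:**
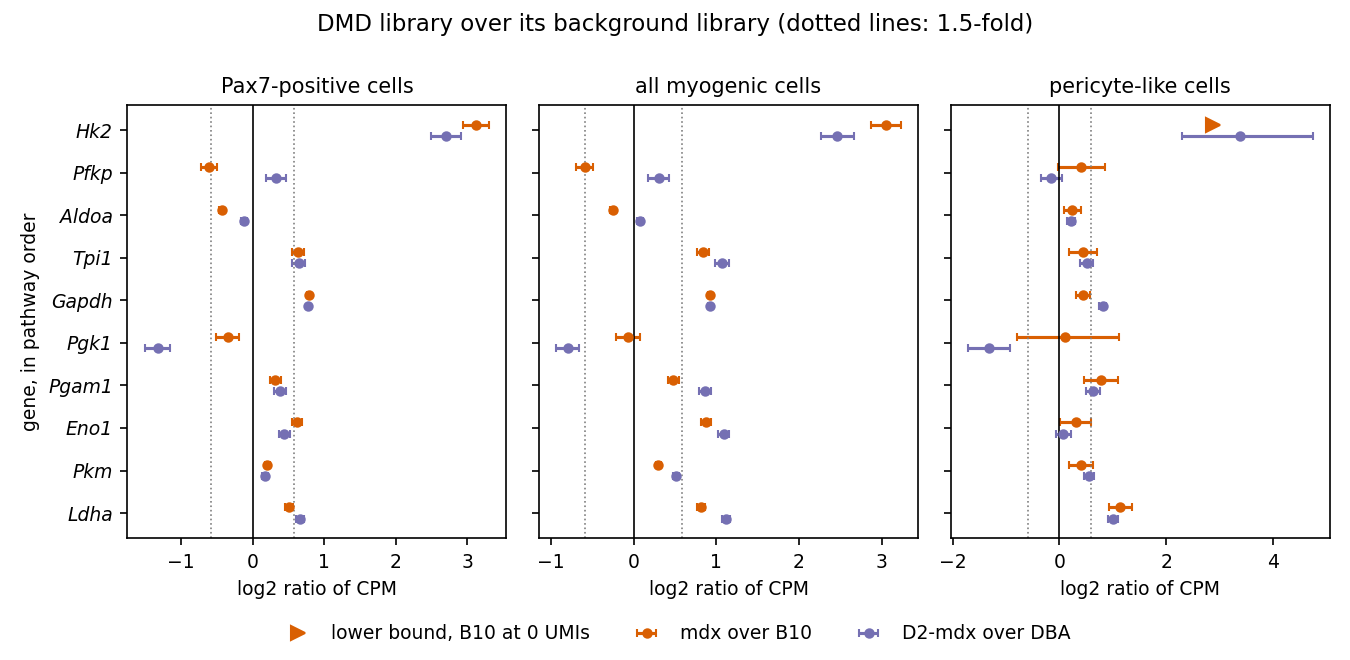
Log2 ratio of CPM (horizontal axis) of each gene in the DMD library over its healthy library, in Pax7-positive, all myogenic and pericyte-like cells. Points are ratios of 1 library to 1 library, bars are 95% counting intervals, and dotted lines mark 1.5-fold. The arrowhead, named lower bound in the key, is the ratio to a floor of 3 counts where B10 held 0 UMIs. *Hk2* lies between 2.46 and 3.39 wherever both libraries hold counts, and *Pgk1* lies below 0 for D2-*mdx* over DBA in all 3 panels.

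Pax7-positive cells of the DMD libraries were not uniform in these genes, and *Hk2* ran against most of the others. Cells with 5 or more UMIs of the matrix genes *Postn*, *Mgp*, *Gpc3*, *Gper1*, *Col1a2* and *Cited1* numbered 1393 in *mdx* and 535 in D2-*mdx*, against 14 and 9 in B10 and DBA. In *mdx* these cells held 39.8 CPM of *Hk2*, against 84.5 CPM in the cells under 5 (log2 ratio -1.09, -1.22 to -0.95), and 2172 CPM of *Gapdh*, against 1465 (log2 ratio 0.57, 0.54 to 0.59). In D2-*mdx* they held 29.8 CPM of *Hk2*, against 55.4 CPM, and 2089 CPM of *Gapdh*, against 1702. *Eno1* and *Pgk1* were also higher in the matrix-high cells, with log2 ratios of 0.64 and 0.73 in *mdx* and 0.55 and 0.55 in D2-*mdx*. *Aldoa*, *Tpi1*, *Pgam1* and *Pkm* were higher in both libraries too. *Ldha* was lower, as *Hk2* was, with log2 ratios of -0.12 in *mdx* and -0.17 in D2-*mdx*. *Pfkp* was lower in D2-*mdx* (-0.45, -0.69 to -0.22), and in *mdx* its interval included 0. The matrix-high cells were deeper (medians of 10926 and 11232 UMIs against 5608 and 5747), and the part of depth in these differences was not tested. With fewer than 5 matrix UMIs required in both libraries, 1 member, *Hk2*, remained past 1.5-fold higher in *mdx* over B10, and in D2-*mdx* over DBA 3 did. Over all Pax7-positive cells 9.26% and 9.28% of genes were higher, and the share within this subset is not given.

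The immediate-early genes *Fos*, *Fosb*, *Jun*, *Junb*, *Egr1*, *Nr4a1*, *Btg2*, *Zfp36*, *Ier2* and *Atf3*, which are induced within minutes of tissue dissociation, took 2.92% to 3.54% of the UMIs of Pax7-positive cells in the 4 libraries. In cells above the median share of their library, *Hk2* stood at 101 CPM in *mdx*, against 34.4 CPM in the cells below it, and at 67.8 CPM in D2-*mdx*, against 35.4 CPM. *Hk2* was also higher above the median in the healthy libraries, at 8.63 against 5.52 CPM in B10 and 9.12 against 5.94 CPM in DBA. Cells above the median were shallower in the DMD libraries (medians of 6022.5 and 5529 UMIs against 8232 and 7236). *Eno1* ran the other way, at 75.9 against 160 CPM in *mdx* and 63.4 against 158 CPM in D2-*mdx*. The *Hk2* difference between strains was found on each side of the median, with log2 ratios of 3.55 and 2.64 in *mdx* over B10 and 2.89 and 2.58 in D2-*mdx* over DBA for the cells above and below it. Above the median 1 member was past 1.5-fold higher in *mdx* over B10 and 2 in D2-*mdx* over DBA, and below it 5 in each pair. The share of all genes within these subsets is not given, beside 9.26% and 9.28% over all Pax7-positive cells. The matrix-high cells had an immediate-early share of 1.77% in *mdx* and 1.72% in D2-*mdx*, against 4.12% and 4.17% in the other Pax7-positive cells, so the groupings are not independent.

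All myogenic cells add the dividing and *Myog*-positive cells and the myogenic cells without a *Pax7* UMI, which numbered 398 in *mdx* and 294 in D2-*mdx*, against 32 in B10 and 26 in DBA. Over all of them, the differences between strains were larger in both pairs for *Tpi1*, *Gapdh*, *Pgam1*, *Eno1*, *Pkm* and *Ldha*. They were smaller for *Hk2*, *Pfkp* and *Pgk1*. *Hk2* stood at 7.09 CPM in B10 against 58.6 in *mdx*, and at 7.61 in DBA against 41.9 in D2-*mdx*. *Aldoa* differed less in *mdx* over B10 (361 against 431 CPM) and turned in D2-*mdx* over DBA, at 464 against 440 CPM. In *mdx* over B10, 5 members were past 1.5-fold higher, against 10.3% of all genes tested, and in D2-*mdx* over DBA 6 were, against 12.5%. The split of higher to lower genes in the latter pair went from 1065 and 1407 to 1273 and 1121 with DESeq2 size factors. *Eno1* reached log2 ratios of 0.88 (0.82 to 0.94) and 1.09 (1.03 to 1.15), *Ldha* 0.81 and 1.12, *Tpi1* 0.84 and 1.07, and *Gapdh* 0.92 in each. The DMD libraries held more of all 3 added classes, and the part of each in these ratios was not tested. *Pgk1*, lower in *mdx* among Pax7-positive cells, gave -0.072 (-0.22 to 0.072) over all myogenic cells, an interval that includes 0.

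Pericyte-like cells, found in the same sort, also held more of some of these transcripts in the DMD libraries. In *mdx* over B10, 3 members were past 1.5-fold higher (*Hk2*, *Pgam1* and *Ldha*), against 7.99% of all genes tested, and in D2-*mdx* over DBA 4 were (*Hk2*, *Gapdh*, *Pgam1* and *Ldha*), against 8.85%. The split of higher to lower genes went from 721 and 1635 to 1119 and 1169 with TMM scaling in the *mdx* pair, and from 780 and 1197 to 993 and 964 with DESeq2 size factors in the D2-*mdx* pair. *Hk2* stood at 22.9 CPM in *mdx* (118 UMIs) and at 0 in B10. Set against a floor of 3 counts over the B10 class this is 7.34-fold, which is not a limit of the exact interval. It stood at 13.6 CPM in D2-*mdx*, against 1.30 CPM in DBA (log2 ratio 3.39, 2.29 to 4.73). *Ldha* stood at 193 CPM in B10 against 425 in *mdx*, and at 205 in DBA against 411 in D2-*mdx*. *Pgk1* was again lower in D2-*mdx* than in DBA, at 11.2 against 27.9 CPM (log2 ratio -1.32, -1.71 to -0.93).

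The other genes of the pathway were described from lists of 18 further isoforms, 5 transporters of glucose and lactate, 12 regulators, 7 genes of the pentose phosphate pathway, 13 of glycogen and gluconeogenesis and 14 further hypoxia targets. *Eno3*, the fibre enolase, was the only gene of these lists past 1.5-fold higher in both pairs. It stood at 5.65 CPM in B10 against 26.5 in *mdx*, and at 3.63 in DBA against 37.5 in D2-*mdx*, with log2 ratios of 2.23 (2.01 to 2.45) and 3.37 (3.08 to 3.67). *Pygm*, the muscle glycogen phosphorylase, was lower in both (log2 ratios -1.26 and -1.08), and so was *Vegfa*, an angiogenic hypoxia target, at 57.2, 10.7, 51.5 and 14.0 CPM (log2 ratios -2.41, -2.58 to -2.25, and -1.88, -2.05 to -1.71).

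Of the further isoforms 5 reached 10 CPM, with 3 higher (*Gpi1*, *Pfkl* and *Eno3*) and 1 lower (*Ldhb*) in *mdx* over B10 and *Eno3* alone in D2-*mdx* over DBA. Of the transporters only *Slc16a1*, a lactate transporter, was measured, and it passed in neither pair. Of 4 regulators measured, *Hif1a* was higher in *mdx* over B10 (81.6 against 53.0 CPM), and none passed in D2-*mdx* over DBA, where *Hif1a* stood at 66.8 against 52.2 CPM. Of 6 pentose phosphate genes none passed in *mdx* over B10, and in D2-*mdx* over DBA *Pgls* was higher and *Tkt* lower. Of 5 glycogen genes *Gbe1* and *Pygm* were lower in *mdx* over B10 and *Pygm* in D2-*mdx* over DBA. Of 10 hypoxia targets 1 was higher (*Mxi1*) and 2 lower (*Vegfa* and *P4ha2*) in *mdx* over B10, and 1 higher (*Ndrg1*) and 1 lower (*Vegfa*) in D2-*mdx* over DBA. The hypoxia targets had a median log2 ratio of 0.37 and 0.16, beside -0.036 and -0.063 over all genes. Over all genes 9.26% were higher and 12.2% lower in *mdx* over B10, and 9.28% and 13.4% in D2-*mdx* over DBA. The lists are short, and their counts are a description.

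Dividing cells held a larger share of most glycolysis transcripts than Pax7-positive cells. The 10 genes together stood at 5528 CPM in the dividing cells of *mdx* and 6452 CPM in those of D2-*mdx*, against 3115 and 3224 CPM in the Pax7-positive cells of the same libraries, or 1.77-fold and 2.00-fold. In DBA they stood at 3651 against 2265 CPM, or 1.61-fold. In *mdx* 7 members were past 1.5-fold higher, against 19.3% of all genes tested, in DBA 6 (19 cells), against 25.7%, and in D2-*mdx* 8, against 22.0%. TMM scaling turned the split of higher to lower genes in DBA from 2291 and 1891 to 1744 and 2371. *Hk2* was the only member past 1.5-fold lower in *mdx*, against 22.9%, and in D2-*mdx*, against 27.1%. In DBA the only lower member was *Pfkp*, on 1 UMI in the dividing cells, beside 1891 of 8900 genes.

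*Eno1* stood at 400 CPM in the dividing cells of *mdx*, 290 in those of DBA and 550 in those of D2-*mdx*, with log2 ratios over Pax7-positive cells of 1.68 (1.56 to 1.80), 1.72 (1.42 to 2.01) and 2.21 (2.13 to 2.29). *Pgk1* stood at 51.5, 77.4 and 50.6 CPM, with log2 ratios of 1.71, 1.15 and 1.87, and *Pgam1* at 274, 161 and 368 CPM, with log2 ratios of 1.60, 1.09 and 1.91. These genes lay higher in dividing cells in each of the 3 libraries. *Tpi1* had log2 ratios of 1.57, 0.87 and 1.61, *Ldha* of 1.28, 1.05 and 1.54, and *Pkm* of 1.04, 0.39 and 1.43. *Gapdh*, at 2813, 1947 and 2832 CPM, differed less, with log2 ratios of 0.63, 0.89 and 0.65. *Hk2* stood at 26.6 CPM in *mdx* (45 UMIs) and 16.5 CPM in D2-*mdx* (59 UMIs), with log2 ratios of -1.23 (-1.69 to -0.80) and -1.56 (-1.97 to -1.19). In DBA the dividing cells held 2 *Hk2* UMIs, too few for a direction. They held 1 *Pfkp* UMI, which gave a ratio with an interval below 0 but rests on that UMI. *Aldoa* was higher in *mdx* (446 CPM, log2 ratio 0.48) and D2-*mdx* (617 CPM, 0.62) and lower in DBA (315 CPM, -0.47, -0.76 to -0.20). *Pfkp* was level in *mdx* (31.3 against 32.6 CPM) and D2-*mdx* (37.2 against 37.6 CPM). In B10 the 4 dividing cells held 191 member UMIs, 2834 CPM (2446 to 3265), and no ratio was formed.

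These levels depended on the limits of genes per cell. In an alternative without the upper limit of 5000 genes, the minimum was also lowered from 1000 to 500 genes and doublets were predicted anew. It is called no upper gene limit here and below, and the part of each change was not tested. It held 194 dividing cells in *mdx* instead of 101, 37 in DBA instead of 19 and 483 in D2-*mdx* instead of 209. *Eno1* then stood at 725, 635 and 681 CPM, *Ldha* at 755, 451 and 837 CPM, and *Pgam1* at 459, 297 and 480 CPM, in the order of these cell numbers. *Hk2* stayed low in the dividing cells of *mdx* and D2-*mdx*, at 24.1 and 22.1 CPM against 61.2 and 48.4 CPM in Pax7-positive cells. In DBA it stood at 28.2 CPM (42 UMIs) in dividing against 7.41 CPM in Pax7-positive cells, the opposite direction to that in both DMD libraries. *Pfkp* and *Aldoa* in DBA then stood at 32.2 and 420 CPM in dividing cells.

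**Figure D3:**
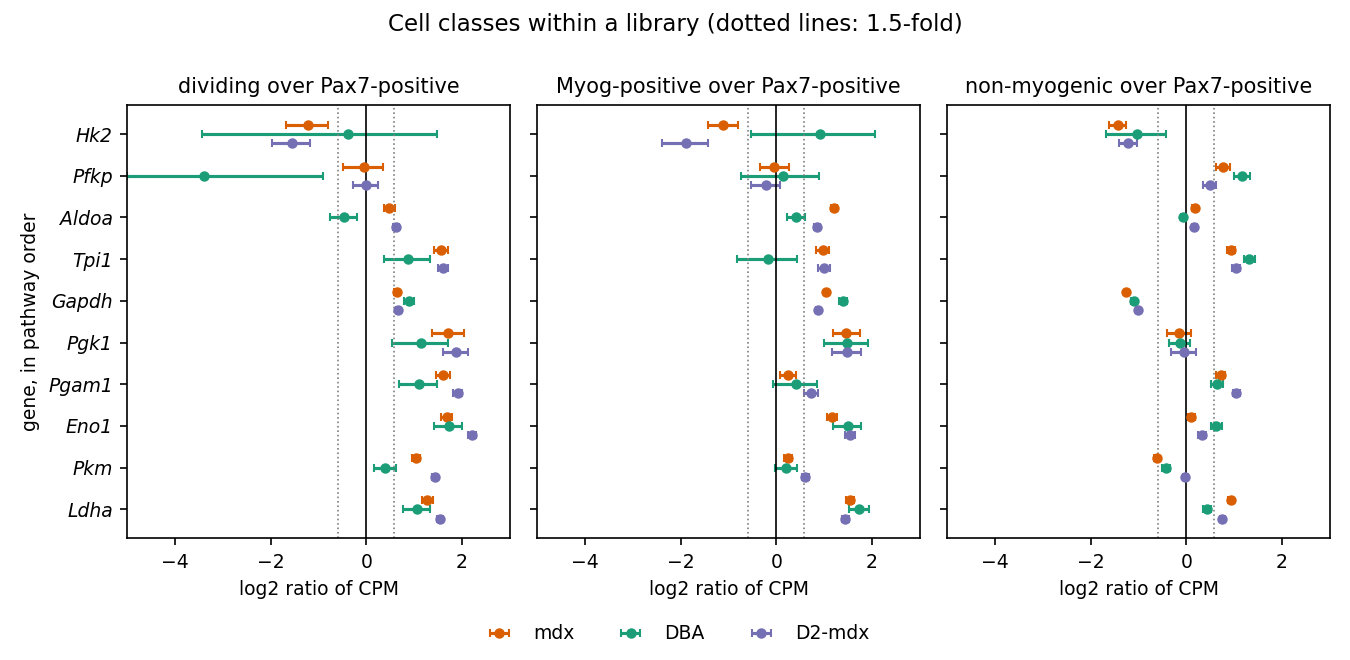
Log2 ratio of CPM (horizontal axis) of each gene in dividing, *Myog*-positive and non-myogenic cells over the Pax7-positive cells of the same library, for *mdx*, DBA and D2-*mdx*. Bars are 95% counting intervals, with 1 interval running past the left edge, and dotted lines mark 1.5-fold. *Eno1* lies between 1.68 and 2.21 in dividing cells, and *Gapdh* lies below -1 in non-myogenic cells of all 3 libraries.

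Cells with *Myog*, the regulator of myoblast differentiation, were also high in glycolysis transcripts but with another profile. The 10 genes together stood at 6104 CPM in *mdx* and 5999 CPM in D2-*mdx*, and at 4766 CPM in DBA, or 1.96-fold, 1.86-fold and 2.10-fold over Pax7-positive cells. In *mdx* 6 members were past 1.5-fold higher, against 16.9%, in DBA 5 (24 cells, with *Hk2* among them on 6 UMIs), against 17.3%, and in D2-*mdx* 8, against 14.5%. *Hk2* was the only member past 1.5-fold lower in *mdx*, against 26.0%, and in D2-*mdx*, against 23.8%. For *mdx*, then D2-*mdx* and last DBA, *Aldoa* stood at 733, 727 and 585 CPM, with log2 ratios of 1.20, 0.85 and 0.42, and *Gapdh* at 3729, 3289 and 2769 CPM, with log2 ratios of 1.04, 0.87 and 1.40. *Ldha* had log2 ratios of 1.54, 1.44 and 1.73 and *Pgk1* of 1.46, 1.47 and 1.48.

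Set against the dividing cells of the same library, *Myog*-positive cells were lower in *Pgam1* (log2 ratios -1.35 in *mdx* and -1.18 in D2-*mdx*), *Pkm* (-0.79 and -0.83), *Tpi1* (-0.60 and -0.61) and *Eno1* (-0.51 and -0.67). They were higher in *Gapdh* (0.41 and 0.22) and *Aldoa* (0.72 and 0.24). Both DMD libraries gave the same direction for each of these genes. *Hk2* stood at 28.9 CPM in *mdx* and 13.2 CPM in D2-*mdx*, below the Pax7-positive cells of each library (log2 ratios -1.11, -1.43 to -0.81, and -1.89, -2.38 to -1.44). In DBA, 6 *Hk2* UMIs gave 14.2 CPM (5.22 to 30.9) and no direction. In B10, 10 *Myog*-positive cells held 4159 CPM of the members, and no ratio was formed.

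Non-myogenic cells held less *Gapdh*, less *Hk2* in the DMD libraries, and more *Tpi1* and *Pgam1* than Pax7-positive cells. *Gapdh* stood at 762 CPM in *mdx* and 891 CPM in D2-*mdx*, and at 491 CPM in DBA, with log2 ratios of -1.25, -1.02 and -1.10. *Tpi1* stood at 163, 196 and 152 CPM in the same order, with log2 ratios of 0.94, 1.03 and 1.32. For the 156 non-myogenic cells of B10 no ratio was formed. In them *Gapdh* stood at 571 CPM, against 1055 in Pax7-positive cells, *Tpi1* at 161 against 54.8, and *Pgam1* at 102 against 72.5. *Hk2* stood there at 3.14 CPM (5 UMIs) against 7.15. In *mdx* 4 members were past 1.5-fold higher, against 30.2%, and 3 lower, against 12.0%. In DBA 4 were higher, against 27.0%, and 1 lower (*Gapdh*), against 15.8%. *Hk2* in DBA, at 3.68 against 7.50 CPM, did not reach 10 CPM, and with no upper gene limit its direction turned, at 11.0 against 7.41 CPM. Of the 25 *Hk2* UMIs behind the 3.68 CPM, 14 came from white blood-like cells. In D2-*mdx* 3 were higher, against 27.1%, and 2 lower (*Gapdh* and *Hk2*), against 11.9%. Scaling by the TMM method lowered the median of all genes by 0.25 in *mdx* and in D2-*mdx* and by 0.19 in DBA on the log2 scale, which changed the split of higher to lower genes from 2885 and 1146 to 2304 and 1892 in *mdx*, from 2536 and 1481 to 2115 and 2028 in DBA, and from 2555 and 1122 to 2027 and 1838 in D2-*mdx*. Under that scaling 2 members in *mdx* and 2 in DBA were past 1.5-fold higher, and the direction of *Gapdh* and *Tpi1*, and of *Hk2* in the DMD libraries, was the same.

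*Hk2* varied among the types. Endothelial-like cells held 0 *Hk2* UMIs in each library. In *mdx* there were 247 such cells with 2134723 UMIs, and in D2-*mdx* 85 cells with 744067 UMIs. A floor of 3 counts is 1.41 CPM in the former and 4.03 CPM in the latter. The upper limit of the exact interval lies above this floor. Their depth (medians of 7424 and 7313 UMIs) was above that of the Pax7-positive cells. The same cells held 424 and 478 CPM of *Ldha* and 735 and 719 CPM of *Gapdh*. Pericyte-like cells held 22.9 and 13.6 CPM of *Hk2*, and glial-like cells 14.0 CPM in each DMD library, with 15.3 CPM (3 UMIs) in B10 and 5.75 CPM (2 UMIs) in DBA. White blood-like cells held 59.9 CPM in *mdx* and 42.6 CPM in D2-*mdx*, where 29.4% and 35.1% of them also had *Pax7*. Fibroblast-like cells held 88.2 CPM in *mdx* (26 cells, 27 UMIs, 58.1 to 128) and 68.6 CPM in D2-*mdx* (52 cells, 45 UMIs, 50.1 to 91.9). Pax7-positive cells were thus not the only cells high in *Hk2*. The intervals of the white blood-like and of the fibroblast-like cells each overlapped those of the Pax7-positive cells in each DMD library.

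**Figure D4:**
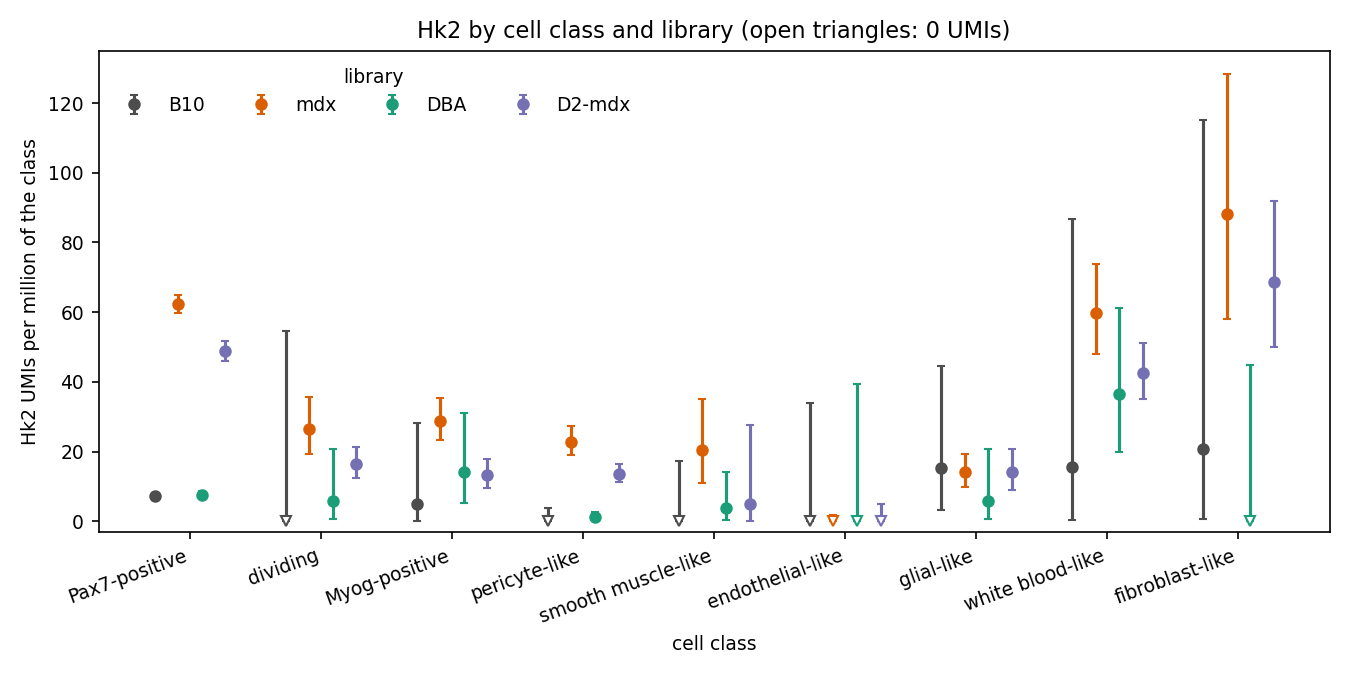
Level of *Hk2* in CPM of the class (vertical axis) in 9 cell classes of the 4 libraries. Points are single libraries, bars are 95% counting intervals, and open triangles mark 0 UMIs. The Pax7-positive cells of *mdx* and D2-*mdx*, at 62.3 and 48.8 CPM, stand above the dividing, *Myog*-positive and pericyte-like cells. The points of the fibroblast-like cells lie higher, at 88.2 and 68.6 CPM, with intervals that overlap those of the Pax7-positive cells. The endothelial-like cells are at 0 in each library.

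RNA of damaged fibres can settle on sorted cells, and mature fibres are rich in glycolysis transcripts, so fibre genes were set beside the members. Barcodes with at least 5% of UMIs on 13 fibre genes numbered 11 (8 in B10, 1 in *mdx* and 2 in D2-*mdx*), of which 3 passed the cell filters and were kept apart. These 3 held 3897 UMIs in *mdx* and 26066 in D2-*mdx*, of 34665 UMIs over all 11. Each of the 3 also held *Pax7*, and 1 in D2-*mdx* held *Myog*. In the 11 barcodes together *Aldoa* stood at 0.832 UMIs and *Eno3* at 0.363 UMIs for each UMI of *Ckm*. These ratios may thus include the transcripts of myogenic cells, and the shares given below rest on them. In Pax7-positive cells, *Ckm* stood at 4.28 CPM in B10 against 5.26 in *mdx*, and at 2.91 in DBA against 16.5 in D2-*mdx*, and *Acta1*, the skeletal muscle actin, at 10.1, 14.3, 9.32 and 54.9 CPM. The D2-*mdx* library was the highest in both. In D2-*mdx* over DBA, 6 of 8 measured fibre genes were past 1.5-fold higher, against 9.28% of all genes tested. In *mdx* over B10 1 of 4 was, against 9.26%. A gene counts as measured when 1 library of the pair reaches 10 CPM, as *Ckm* and *Acta1* did in D2-*mdx* but not in DBA. The numbers measured thus depend on the difference itself. *Mylpf*, a myosin light chain of fast fibres, was higher in both pairs (3.60-fold and 8.01-fold), and *Atp2a1*, the calcium pump of fast fibres, was lower in both (log2 ratios -0.62 and -0.79). *Actn3* and *Atp2a1* made up 80.8%, 67.0%, 84.0% and 42.2% of the fibre-list UMIs of these cells.

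At the *Ckm* ratios of the fibre-rich barcodes, fibre RNA would account for 0.827% of the *Aldoa* UMIs of Pax7-positive cells in B10 against 1.37% in *mdx*, and for 0.553% in DBA against 3.42% in D2-*mdx*. For the 10 members together the shares were 0.423%, 0.373%, 0.284% and 1.13%. For *Hk2*, with 2 UMIs in those barcodes, they were at most 0.325%. For *Eno3* the shares were 27.5%, 7.22%, 29.1% and 16.0%. If every fibre-list UMI were fibre RNA, *Actn3* and *Atp2a1* included, the shares would be higher, at 1.92%, 1.26%, 1.84% and 1.99% for the 10 members together and 3.76%, 4.64%, 3.58% and 6.02% for *Aldoa*. For *Hk2* they would be 1.48%, 0.155%, 1.36% and 0.323%. For *Eno3* they would be 125%, 24.4%, 189% and 28.2%, which in B10 and DBA is more than all *Eno3* UMIs counted. In *Myog*-positive cells the share for *Aldoa* by this second calculation would be 11.9% in *mdx* and 14.6% in D2-*mdx*. At the *Ckm* ratios it would be 1.58% and 1.21%. These cells held 410 and 590 CPM of *Acta1*, a gene of the fibre list, beside 14.0 and 10.5 CPM of *Ckm*.

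*Eno3* did not follow *Ckm* among the myogenic classes. In dividing cells it stood at 194 CPM in *mdx* and 349 CPM in D2-*mdx*, where *Ckm* stood at 3.55 and 6.15 CPM and *Pgam2* at 0.591 and 1.40 CPM. In *Myog*-positive cells *Eno3* stood at 109 and 304 CPM beside 14.0 and 10.5 CPM of *Ckm*. The *Eno3* to *Ckm* ratio was 54.7 and 56.7 in dividing cells and 5.03 and 2.27 in Pax7-positive cells of *mdx* and D2-*mdx*. Of the UMIs of both enolases, *Eno1* took 82.5% in the Pax7-positive cells of *mdx* and 76.0% in those of D2-*mdx*, 67.3% and 61.2% in dividing cells, and 72.1% and 53.1% in *Myog*-positive cells. In the Pax7-positive cells of B10 and DBA it took 93.5% and 96.0%.

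Cells with no *Ckm* or *Acta1* UMI gave log2 ratios of *Hk2* of 3.22 in *mdx* over B10 and 2.69 in D2-*mdx* over DBA, beside 3.12 and 2.70 over all Pax7-positive cells. *Gapdh* gave 0.75 and 0.78. In these cells 2 members were past 1.5-fold higher in *mdx* over B10, instead of 4, and 4 in D2-*mdx* over DBA. Over all Pax7-positive cells 9.26% and 9.28% of genes were higher, and the share within this subset is not given. The B10 barcodes under 500 genes held 80.7 CPM of *Ckm*, 186 CPM of *Acta1* and 266 CPM of *Aldoa*, with 2.07 CPM of *Hk2*, and their ratio of *Aldoa* to *Ckm* was 3.29, against 101 in the Pax7-positive cells of that library.

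**Figure D5:**
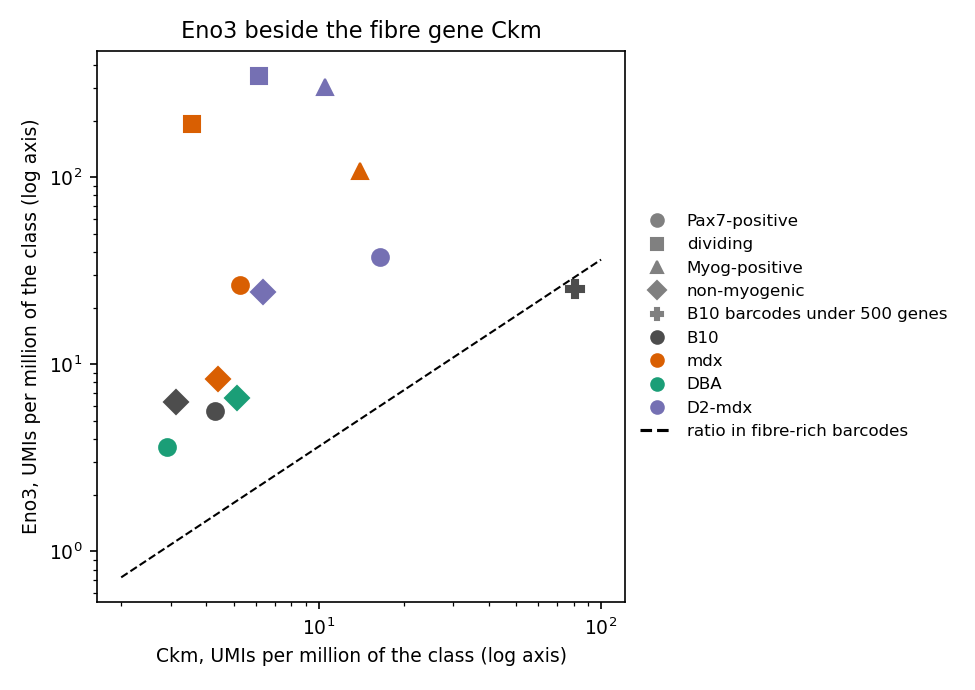
*Eno3* (vertical axis) against *Ckm* (horizontal axis), both in CPM of the class on log axes, for each class and library in which both had more than 3 UMIs, with the B10 barcodes under 500 genes. The dashed line is the ratio of 0.363 in the fibre-rich barcodes. The B10 barcodes under 500 genes lie near the line, and the dividing cells of *mdx* and D2-*mdx* lie far above it.

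Between the DMD libraries the Pax7-positive cells differed little, from a log2 ratio of -0.35 for *Hk2* to 0.36 for *Ldha* in D2-*mdx* over *mdx*. Between the healthy libraries 8 of 10 members lay between -0.015 and 0.20 in DBA over B10, and *Pfkp* (-0.73) and *Pgk1* (0.80) lay outside. In dividing cells D2-*mdx* was higher than *mdx* in *Ldha* (0.63), *Aldoa* (0.47) and *Eno1* (0.46) and lower in *Hk2* (-0.69), on the log2 scale. With no upper gene limit *Eno1* turned, at 681 CPM in D2-*mdx* against 725 CPM in *mdx*, and the others drew closer, with *Ldha* at 837 against 755, *Aldoa* at 739 against 676 and *Hk2* at 22.1 against 24.1 CPM. These strains also differ in age and in the mice pooled, and these cannot be told apart from background.

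Over the 15 points of library and class with at least 10 cells, members were compared with the mean log2(CPM + 1) of the other 9. Pearson's r was highest for *Ldha* (0.88), *Eno1* (0.86) and *Pkm* (0.82) and lowest for *Hk2* (0.24), *Pgk1* (0.26) and *Pfkp* (-0.26). The 5 genes outside the lists most like the members' mean, of 5535 genes, were *Eif5a* (0.97), a translation factor, *Glrx5* (0.96), a mitochondrial iron-sulfur cluster protein, *Cacybp* (0.96), *Dnajc15* (0.96), a mitochondrial co-chaperone, and *Mrpl43* (0.95), a mitochondrial ribosomal protein. The points share libraries and the classes differ in depth, so these values are a description.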

How the data were processed

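The 4 libraries of 10X 3′ V3.1 single-cell RNA were analysed as 1 per strain, each from 2 pooled mice. The authors aligned and counted the reads with Cell Ranger 3.0.1 on mm10 and deposited matrices of UMI counts per gene and barcode, which were used as counts. The authors' own comparisons were not used. A cell had to show 1000 to 5000 genes and to carry no more than 8% of its UMIs on mitochondrial genes, and doublets predicted by Scrublet in scanpy 1.11.5 (expected rate 0.008 per 1000 cells) were removed.

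Classes were set in this order. Non-myogenic cells had at least 5 UMIs of the marker lists of 6 other cell types and more than of the myogenic list. Other cells needed at least 3 myogenic UMIs, and those with at least 5% fibre UMIs were set apart. Dividing cells had at least 10 UMIs of the cycle list, *Myog*-positive cells at least 2 of *Myog* and Pax7-positive cells at least 1 of *Pax7*. Types were named by the list with most UMIs. UMIs were summed per class and library and divided by their total (CPM). Ratios have exact 95% intervals from the binomial share of both counts, and levels have exact Poisson intervals. UMIs correct for PCR copies, and the intervals cover counting error only. Genes at 10 CPM or more in 1 library of a pair were compared, and 1.5-fold was the limit for a call. All members are named, and of the other pathway lists the isoforms of a member and genes past 1.5-fold in the same direction in both DMD pairs in Pax7-positive cells; others appear by name where a count was 5 or fewer. The members and lists were chosen with earlier results of these data known. With 1 library per strain no test was run. Interval coverage was checked on simulated Poisson counts only. The intervals assume the same counting error, so this check could not bear on spread between cells, mice or libraries. Alternatives covered scaling (edgeR 4.0.16, DESeq2 1.42.0), filters, class limits and subsets of cells. Python 3.11.15, scipy 1.17.1 and R 4.3.3 were used.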

Additional observations from a re-analysis of the deposited data

Results flagged for a closer look

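*Pfkp* in Pax7-positive cells was lower in *mdx* than in B10 (log2 ratio -0.61) and higher in D2-*mdx* than in DBA (0.33). The first minus the second was -0.94, and the pairs ran in opposite directions. With 1 library per strain this difference was not tested.

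The B10 barcodes under 500 genes, which entered no comparison, held *Ckm* at 80.7 CPM, against 4.28 CPM in the Pax7-positive cells of the same library.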

How the results depend on the processing

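Of 190 alternatives to 13 counts of members past 1.5-fold, 178 stayed within 1.5 times the reported count and 12 did not. In Pax7-positive cells of *mdx* over B10 the count of 4 became 2 with classes from cells thinned to 3000 UMIs, 1 with fewer than 5 matrix UMIs, 1 above the median immediate-early share, 2 without any fibre-list UMI, 2 without *Ckm* or *Acta1* UMIs (chosen after seeing the data) and 2 as a mean of depth-scaled counts over cells. In D2-*mdx* over DBA the count of 4 became 2 above the median immediate-early share and 2 as that mean. Without any fibre-list UMI the count in all myogenic cells of *mdx* over B10 went from 5 to 3, and that in *Myog*-positive cells of D2-*mdx* from 8 to 4 (10 cells). TMM scaling took the non-myogenic count from 4 to 2 in *mdx* and from 4 to 2 in DBA. The cause of these shifts was not tested, and the share of all genes is not given for the subsets of cells.

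Of 1970 values of single members 4 were counted as changing sign. With no upper gene limit these were *Pfkp* in dividing cells of DBA (0.091) and *Hk2* in non-myogenic cells of DBA (0.57). The others were *Aldoa* in dividing cells of D2-*mdx* (-0.29) with thinned classes and *Pkm* in *Myog*-positive cells of D2-*mdx* (-0.26) without fibre-list UMIs. The count does not cover every change of sign. With no upper gene limit *Hk2* in dividing cells of DBA also turned, from 5.74 against 7.50 CPM on 2 UMIs to 28.2 against 7.41 CPM. *Pfkp* in dividing cells of *mdx* and D2-*mdx*, level with Pax7-positive cells before, turned in that setting too. *Hk2* in Pax7-positive cells ranged from 2.64 to 3.62 in *mdx* over B10 and from 2.58 to 3.25 in D2-*mdx* over DBA. TMM scaling moved the median of all genes by -0.16 in dividing cells of DBA and 0.14 in pericyte-like cells of *mdx*. The pericyte-like comparisons were added after seeing the data. No paired analysis was possible because each strain is 1 library of its own pooled mice, and the result comes from no test. A fit of DMD status blocked by background over the 4 libraries, which leaves 1 residual degree of freedom, was not run. Comparisons within B10 were not run, with 4 dividing and 10 *Myog*-positive cells. That reason does not cover its 156 non-myogenic cells, for which only levels are given. Strain, age, pooled mice and library cannot be told apart.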
